A study of Mus musculus with 6 samples.

Results

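The genes described here encode the proteins of the cytosolic ribosome. They were taken by name from a table of 26332 mouse genes: symbols that begin with Rpl or Rps followed by a number, plus Rpsa, Rplp0, Rplp1, Rplp2 and Fau, with pseudogene names (-ps) left out. The choice used no measured value and gave 87 genes, 53 of the large subunit and 34 of the small subunit. Of these, 78 are the canonical genes and 9 carry the name of another member with an added l for "like" (Rpl3l, Rpl6l, Rpl7l1, Rpl10l, Rpl22l1, Rpl32l, Rpl39l, Rps4l and Rps27l). The RefSeq annotation lists 85 of the 87 as protein coding, Rps4l as a transcribed pseudogene and Rpl6l as a pseudogene. Rpl10l had no count in any library, and the other 86 genes had enough counts to be tested. Rack1 and Rpl36al also belong to the cytosolic ribosome but lie outside the naming rule and are given apart.

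A ribosome is assembled from ribosomal RNA and one copy of nearly every ribosomal protein, except the acidic stalk proteins, of which it holds several. The small subunit reads the messenger RNA and the large subunit joins the amino acids. The messenger RNAs of this family usually begin with a C followed by an unbroken run of pyrimidines, the 5′ terminal oligopyrimidine (TOP) motif, through which mTOR signalling controls their translation as a group. The thymocytes studied here proliferate strongly after they pass the pre-T-cell receptor checkpoint, a step that needs much new protein, and Rpl22 is known for its part in the survival of developing alpha-beta T cells.

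RNA was measured in double negative 3 (DN3) thymocytes, an early stage at which the T-cell receptor beta gene is rearranged, from 4 wild type (WT) and 2 Tcf7 knockout (KO) C57BL/6 mice, each sample from an individual mouse. Tcf7 encodes TCF-1, a transcription factor of early T-cell development. The mice WT 4 and KO 1 were male and the other 4 female. All 6 samples were sorted as cells with CD25 on their surface and without CD44, TCRbeta, CD3, CD8, NK1.1 and CD1d tetramer staining. The labels do not say which bases of Tcf7 are removed, in which cells, or how old the mice were.

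Library totals were 23711513 to 41666797 counts in WT against 19589938 in KO 1 and 13673860 in KO 2. Tcf7 stood at 2094 to 2326 CPM (counts relative to the size of the library, after scaling with TMM factors) in WT against 1133 in KO 1 and 1022 in KO 2, so the gene was lower in both libraries labelled KO but not at 0. Among defining genes of the DN3 stage, Il2ra and Ptcra were present in all 6 libraries and lower in KO, and Notch1 was present and did not pass the test. The KO libraries also differed from WT, and from each other, in markers of other cells. The summed level of 10 B-cell markers was 236 to 265 CPM in WT against 544 in KO 1 and 1115 in KO 2. Ighm alone gave 522 of the 544 CPM in KO 1, where Cd79b was lower than in WT (10.8 CPM against 42.4 to 50.8) and Ms4a1, Pax5, Ebf1 and Igkc were at 0. Ms4a1 and Pax5 were also at 0 in all 4 WT libraries and stood at 36.0 and 7.54 CPM in KO 2. The sum of 10 CD8 and double-positive markers was 2454 to 2862 in WT against 1313 in KO 1 and 4472 in KO 2. This sum follows Rag1, at 1476 to 1925 CPM in WT against 521 in KO 1 and 1953 in KO 2, while CD8 and T-cell receptor alpha genes were higher in both KO mice. Cd8a stood at up to 3.72 CPM in WT against 66.9 in KO 1 and 858 in KO 2, Cd8b1 at up to 6.74 against 86.5 and 473, and Trac at up to 3.07 against 69.5 and 394. The sum of 9 natural killer and innate markers was 258 to 303 in WT against 1386 in KO 1 and 1484 in KO 2. Gzma alone gave 1333 and 1407 of these, while Nkg7 stood at 54.0 to 70.0 CPM in WT against 51.2 and 48.7. Gzmb was also above WT in both KO mice, at up to 0.410 CPM in WT against 2.20 in KO 1 and 26.0 in KO 2. Klrb1c, Klrk1, Ncr1, Tbx21 and Zbtb16 were at 0 in KO 1, and Ncr1, Eomes and Zbtb16 at 0 in KO 2. In WT, Klrb1c, Klrk1, Ncr1, Eomes and Zbtb16 were also near 0, at up to 0.176 CPM, and Tbx21 stood at 0.418 to 0.958 CPM. Mitochondrially encoded genes took 2.61% to 2.92% of counts in WT against 0.893% in KO 1 and 1.78% in KO 2. The part of these differences in the results below was not tested.

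In WT cells the family was steady from mouse to mouse and very uneven from gene to gene. To compare genes, counts were divided by the deposited gene length and given as RPKM (CPM per kilobase of gene). The median canonical gene stood at 126 RPKM, averaged over the 4 WT libraries. The lowest was Rpl39 at 4.08 RPKM and the highest Rpl8 at 2375 RPKM, a range of 583-fold among genes whose proteins enter the ribosome together. Of the 78 canonical genes, 11 were over 1000 RPKM, 23 were under 30 RPKM and 3 were under 10 RPKM. The median coefficient of variation over the WT libraries was 5.26%.

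Among the highest genes by WT level were Rpl8 (2375 RPKM), a protein near the peptidyl transferase centre, the stalk gene Rplp1 (1723 RPKM), Rpl32 (1525 RPKM) and Rps15 (1496 RPKM). Rpl8 read 2086, 2043, 2029 and 2029 CPM in WT 1 to WT 4, 2032 in KO 1 and 2108 in KO 2. The KO values of Rpl8 thus lay inside or just above the WT range, and the gene hardly changed (log2 change 0.02, SE 0.06, edgeR adjusted p = 0.783). The 3 canonical genes below 10 RPKM were Rpl39, Rps28 and Rpl23a, at 4.08, 6.98 and 9.18 RPKM.

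**Figure D1:**
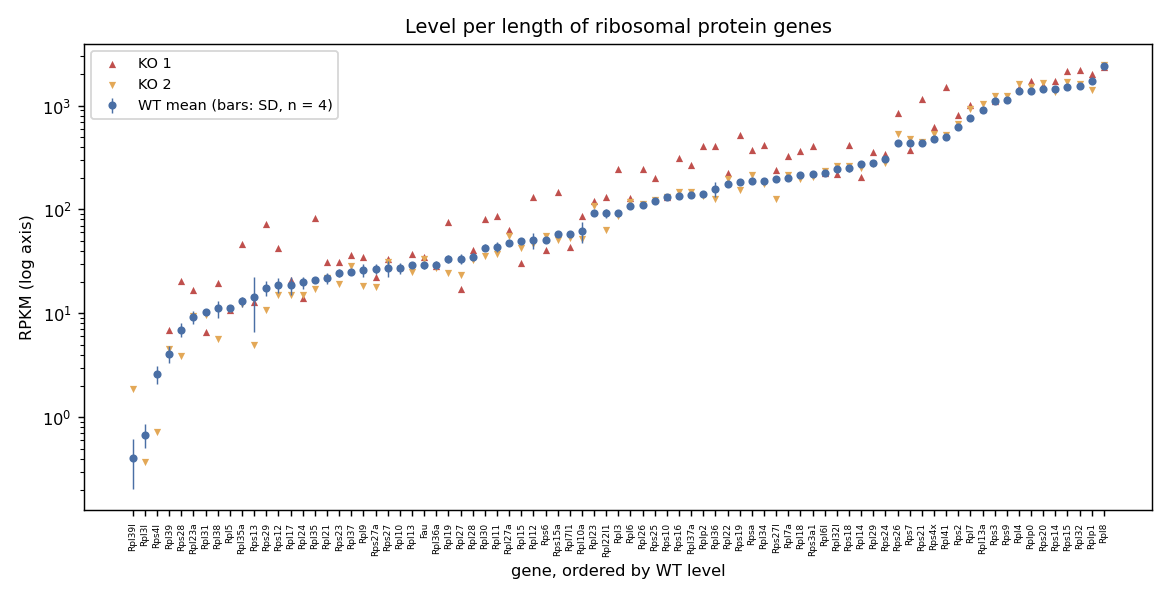
Level per length (RPKM, log axis) of 81 ribosomal protein genes, ordered by WT mean. Blue points are means of 4 WT libraries with the SD as bars, red and orange triangles are KO 1 and KO 2, and a triangle is missing where a library had no count. Canonical genes run from 4.08 RPKM (Rpl39) to 2375 RPKM (Rpl8), and the KO 1 triangle lies above the WT point for most genes in the middle of the range.

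Low levels were found more often in genes whose sequence is repeated elsewhere. The mouse genome holds many processed copies of ribosomal protein genes, and a read that fits several copies can be lost or assigned to another gene, depending on counting settings that no source used here gives. For each of 86 members with a GENCODE transcript, every 75-base window was searched in the transcripts of all other annotated genes. The 39 members with more than 50% of windows shared had a median WT level of 51.1 RPKM, and the 43 with up to 50% shared had 176 RPKM. Only 4 members shared no window, with a median of 225 RPKM. Across the 86 genes the rank correlation of shared windows with WT level was −0.28, a description over genes that also share libraries and base composition.

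Rps27 shows the extreme case. It encodes a zinc-finger protein of the small subunit, and 98.5% of its windows occur in other genes. Its coding sequence of 255 bases differs from that of the separate gene Rps27rt at 0 positions, and the first 60 coding bases that both genes have in common are shown for that reason, all in lower case because none differs.
Rps27: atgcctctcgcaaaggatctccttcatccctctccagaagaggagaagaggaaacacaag
Rps27rt: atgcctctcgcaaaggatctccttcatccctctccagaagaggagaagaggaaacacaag
Rps27 itself read 14.4, 14.8, 13.4 and 19.9 CPM in WT against 19.2 in KO 1 and 18.0 in KO 2. Rps27rt read 439 to 481 CPM in WT against 485 in KO 1 and 508 in KO 2. The deposited counts thus list far more reads under Rps27rt than under Rps27, and the level of Rps27 alone is uncertain. Rpl37 likewise stood lower than its copy, at 20.3 to 22.7 CPM in WT beside Rpl37rt at 399 to 437 CPM. Of the windows of Rpl37, 25.8% occur in other genes, and its coding sequence was not compared with that of Rpl37rt. In KO 1 and KO 2 Rpl37rt stood at 708 and 424 CPM. The 36 genes named as copies of members (-ps or rt) took 0.172% to 0.177% of counts in WT against 0.202% in KO 1 and 0.179% in KO 2.

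A pyrimidine run of the TOP type was more frequent in the members than in all genes, though most members lacked it exactly at an annotated start. RefSeq promoter windows (GRCm38.p6, 250 bases before to 50 after each annotated start) were found for 65 of the 87 genes. A C followed by at least 4 more pyrimidines (C or T) exactly at an annotated start occurred in 15 of the 65, or 23.1%, against 3.01% of 27025 genes with such a window. A C followed by at least 7 pyrimidines within 30 bases of the start occurred in 36 of the 65, or 55.4%, against 20.6% of all. Start windows are shown for 6 members from both subunits that recur in the results below. Each has 10 bases before and 20 from the annotated start, with the run in capitals. Rpl35a also has other annotated starts, which lack the run.
Rps6: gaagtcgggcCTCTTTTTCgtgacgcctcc
Fau: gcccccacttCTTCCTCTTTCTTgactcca
Rpl15: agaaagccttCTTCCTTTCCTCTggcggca
Rpl35: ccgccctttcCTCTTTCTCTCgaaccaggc
Rpl35a: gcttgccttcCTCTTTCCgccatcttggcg
Rplp2: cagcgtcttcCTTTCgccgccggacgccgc
These lie at chr4:86857348-86857377 (minus strand), chr19:6057937-6057966 (plus), chr14:18270967-18270996 (minus), chr2:39005112-39005141 (minus), chr16:33056472-33056501 (plus) and chr7:141447641-141447670 (plus). The ETS-type motif CCGGAAGT, searched on both strands of the whole window, occurred in 12 of the 65, or 18.5%, against 4.31% of all genes. The TCF-type motif CTTTGAA or CTTTGAT, also on both strands, occurred in 1 of the 65 (Rps3a1), or 1.54%, against 9.88% of all. The box TATAAA, 40 to 15 bases before the start, was in 1 of the 65, against 2.41% of all. A match is a description of these letters only, and motifs may overlap.

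Few members differed between KO and WT when both KO libraries were weighed together. A gene was called at an adjusted p under 0.05 in an edgeR quasi-likelihood test with sex as an added term, adjusted over all 13294 genes tested. By that rule 7 of the 86 members were called, or 8.14%, where 30.7% of all genes tested were called. Higher in KO were 4 members, among them Rpl7 and Rpl23, or 4.65%, with 14.1% of all genes. Lower in KO were 3 (Rps13, Rpl27 and Rps27a), or 3.49%, with 16.5% of all genes. Without adjustment, 26 of the 86 members had an edgeR p under 0.05. Of all 13294 genes, at least the 4076 called after adjustment, or 30.7%, had such a p too. The counts depended on single mice. They were 1 higher and 0 lower without WT 1, without WT 2 or without WT 3, 25 and 18 without WT 4, 26 and 18 without KO 1, and 51 and 13 without KO 2. Of all genes, 12.6% to 13.2% were called without WT 1, WT 2 or WT 3, 62.9% without WT 4, 61.9% without KO 1 and 68.5% without KO 2. DESeq2 on all 6 libraries called 17 members higher and 6 lower, and 39.6% of all genes. The median log2 change was 0.22 for the members and −0.04 for all genes tested, and for the members it was 0.02 without KO 1, 0.00 without WT 4 and 0.38 without KO 2. In bulk samples fewer cells of a type and less RNA per cell cannot be told apart, here and below.

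Rpl7, a large-subunit protein that binds RNA (chr1:16101295-16104433, RefSeq GRCm38.p6, as for the positions below), read 722, 728, 695 and 701 CPM in WT against 952 in KO 1 and 869 in KO 2. Its groups did not overlap, and it rose 1.27-fold (log2 change 0.35, SE 0.07, edgeR adjusted p = 0.017). Rpl23, a large-subunit protein known to bind MDM2 (chr11:97777526-97782439), read 99.8, 102, 93.3 and 95.7 CPM in WT against 129 in KO 1 and 115 in KO 2. Both KO values of Rpl23 lay above WT, a rise of 1.24-fold (log2 change 0.31, SE 0.08, edgeR adjusted p = 0.046).

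Rpl27, a large-subunit protein (chr11:101442245-101445596), had the lowest KO level relative to WT among the calls whose groups did not overlap. It read 21.8, 25.5, 23.2 and 27.6 CPM in WT against 12.7 in KO 1 and 17.2 in KO 2. Both KO mice were below every WT mouse, a fall of 1.64-fold (log2 change −0.71, SE 0.19, edgeR adjusted p = 0.041). Rps27a, which is made as a fusion with ubiquitin and so supplies both a ribosomal protein and ubiquitin (chr11:29545842-29548040), read 20.4, 20.2, 22.5 and 25.3 CPM in WT against 18.2 in KO 1 and 14.7 in KO 2. It fell 1.41-fold without overlap (log2 change −0.50, SE 0.11, edgeR adjusted p = 0.027). Of the windows of Rpl27 and Rps27a, 62.4% and 67.5% are shared with other genes.

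Rps13, a small-subunit protein (chr7:116331507-116334190), was called on a different pattern. It read 6.399, 6.23 and 5.75 CPM in the WT females, 15.3 in the WT male, 7.47 in KO 1 and 2.91 in KO 2. The WT male stood apart from the other 3 WT mice, and KO 1 lay inside the WT range, although each KO mouse was below the WT of its own sex. The fall was 2.08-fold in the model with sex (log2 change −1.05, SE 0.17, edgeR adjusted p = 0.011). Without the sex term the call was lost, and 78.6% of the Rps13 windows are shared with other genes.

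The 5 calls described above were each lost when WT 1, WT 2 or WT 3 was left out, with edgeR adjusted p of 0.066 to 0.083 for Rpl7, 0.108 to 0.142 for Rpl23, 0.051 to 0.058 for Rps13, 0.092 to 0.119 for Rpl27 and 0.092 to 0.098 for Rps27a. None of the 5 changed direction in any of 16 alternative analyses.

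**Figure D2:**
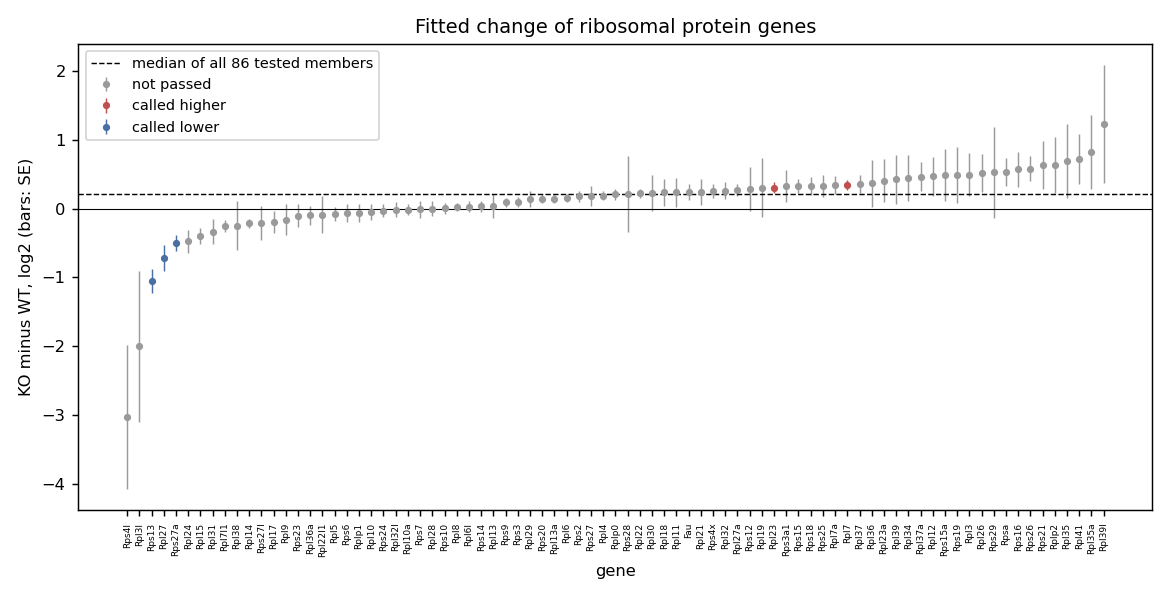
Fitted log2 change (KO minus WT, with the standard error) of 81 of the tested ribosomal protein genes, ordered by size. Red points are 2 genes called higher, blue points the 3 called lower and grey points the rest, and the dashed line is the median of 0.22 over all 86. The called genes lie at moderate changes with small errors, while Rps4l, Rpl3l and Rpl39l at the ends have the widest errors.

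The larger pattern was a split between the KO mice. In KO 1 the family as a whole took a larger share of the library than in any WT mouse, and in KO 2 the share was just above WT. Members held 2.31%, 2.35%, 2.27% and 2.33% of counts in WT 1 to WT 4 (mean 2.32% ± 0.0348 SD, n = 4), 3.00% in KO 1 and 2.43% in KO 2. The difference of 0.402 percentage points between the group means was 0.114 without KO 1 and 0.690 without KO 2. With 4 mice against 2 no p was computed for this share. The median log2 ratio of a member to its WT mean was 0.39 in KO 1 and −0.01 in KO 2, and over all genes tested it was −0.05 in both. These ratios were taken after adding 0.5 CPM to both sides. The SD of the ratios over members was 0.75 in KO 1 and 0.36 in KO 2, and over all genes tested it was 1.19 and 1.04. Each WT library was set against the mean of the remaining WT libraries instead. There the SD was at most 0.23 over members and 0.28 over all genes.

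**Figure D3:**
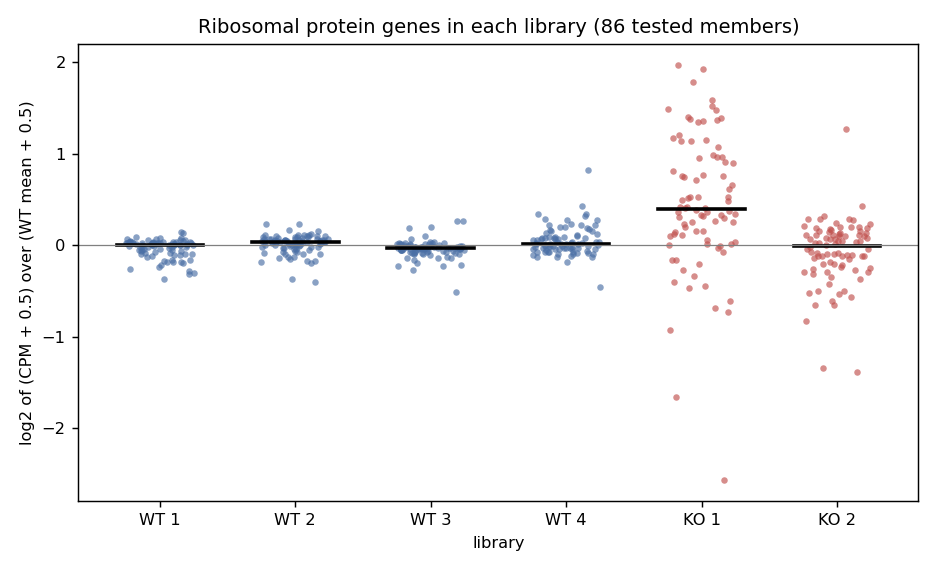
Log2 ratio of each tested member to its WT mean in each of the 6 libraries, with 1 point per gene (86 genes) and a black line at the median. The WT libraries and KO 2 are centred near 0, and KO 1 is centred at 0.39 with a spread of 0.75 (SD).

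KO 1 lay above all 4 WT libraries for 63 of the 86 members, or 73.3%, where 40.5% of all genes did so, and below all 4 for 14 members, or 16.3% (46.5% of all genes). KO 2 lay above all WT libraries for 31 members, or 36% (38.1% of all genes), and below for 33, or 38.4% (44.9% of all genes). At least 2-fold above the WT mean in KO 1 were 19 members, or 22.1%, where 9.89% of all genes were. In KO 2 there was 1 such member (Rpl39l), or 1.16%, where 8.74% of all genes were. Rpl39l had few counts, 20 in KO 2 and 3 to 14 in the WT libraries. The count of 63 was the same under all 5 ways of scaling the libraries that were tried, and the KO 1 median ran from 0.38 to 0.40. The KO 2 counts moved with the scaling, from 25 to 34 members above and from 29 to 38 below all WT libraries.

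Every tested member falls into a class by where the KO mice lay against the 4 WT mice. Both lay above in 26 members, or 30.2% (22.9% of all genes), among them Fau, Rpl4, Rpl6, Rpl7, Rpl7a, Rpl13a, Rpl22, Rpl23, Rpl27a, Rpl32, Rpl37, Rpl37a, Rplp0, Rps2, Rps4x, Rps9, Rps15, Rps16, Rps20, Rps25, Rps26 and Rpsa. Both lay below in 9 members, or 10.5% (28.6% of all genes): Rpl3l, Rpl7l1, Rpl14, Rpl15, Rpl24, Rpl27, Rpl31, Rps4l and Rps27a. KO 1 was above and KO 2 below in 22 members (19 to 26 under the other scalings), or 25.6% (11% of all genes): Rpl3, Rpl9, Rpl10a, Rpl11, Rpl13, Rpl18, Rpl19, Rpl22l1, Rpl30, Rpl35, Rpl38, Rplp1, Rps3a1, Rps12, Rps14, Rps15a, Rps19, Rps23, Rps24, Rps27l, Rps28 and Rps29. KO 1 was above and KO 2 inside the WT range in 15 members, among them Rpl12, Rpl21, Rpl23a, Rpl26, Rpl28, Rpl29, Rpl34, Rpl35a, Rpl36, Rpl39, Rpl41, Rplp2, Rps18 and Rps21. The opposite split, KO 1 below and KO 2 above, was found in 3 members, or 3.49% (10.6% of all genes): Rpl32l, Rpl39l and Rps7. Rpl5 and Rps6 were below WT in KO 1 only, Rpl8 and Rps3 above in KO 2 only, and Rpl17 and Rps13 below in KO 2 only. Rpl10, Rpl36a, Rpl6l, Rps10 and Rps27 lay inside the WT range in both KO mice. For the classes given without a percentage, the share over all genes was not counted.

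The genes farthest above WT in KO 1 were small proteins of both subunits. Rps29, a zinc-binding protein of the small-subunit head, read 6.06, 8.11, 5.79 and 7.45 CPM in WT against 28.3 in KO 1 and 4.18 in KO 2. KO 1 was thus 4.13 times the WT mean, while KO 2 lay below every WT mouse. Rpl35, next to the exit of the peptide tunnel, read 8.86, 9.99, 9.35 and 10.01 CPM in WT against 37.8 in KO 1 and 7.69 in KO 2. Rpl35a read 7.90, 7.56, 8.89 and 6.78 CPM in WT against 28.0 in KO 1 and 7.31 in KO 2. KO 1 stood at 3.95 times the WT mean for Rpl35 and 3.60 times for Rpl35a. KO 2 was below the WT range for Rpl35 and inside it for Rpl35a.

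An abundant member showed the same split. Rpl41, the gene of the smallest ribosomal protein, read 223, 237, 218 and 215 CPM in WT against 671 in KO 1 and 236 in KO 2. In KO 1 the level of Rpl41 was 3.00 times its WT mean, while in KO 2 it lay inside the WT range. None of these 4 genes passed the test of KO against WT, with edgeR adjusted p from 0.187 for Rpl41 to 0.584 for Rps29.

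**Figure D4:**
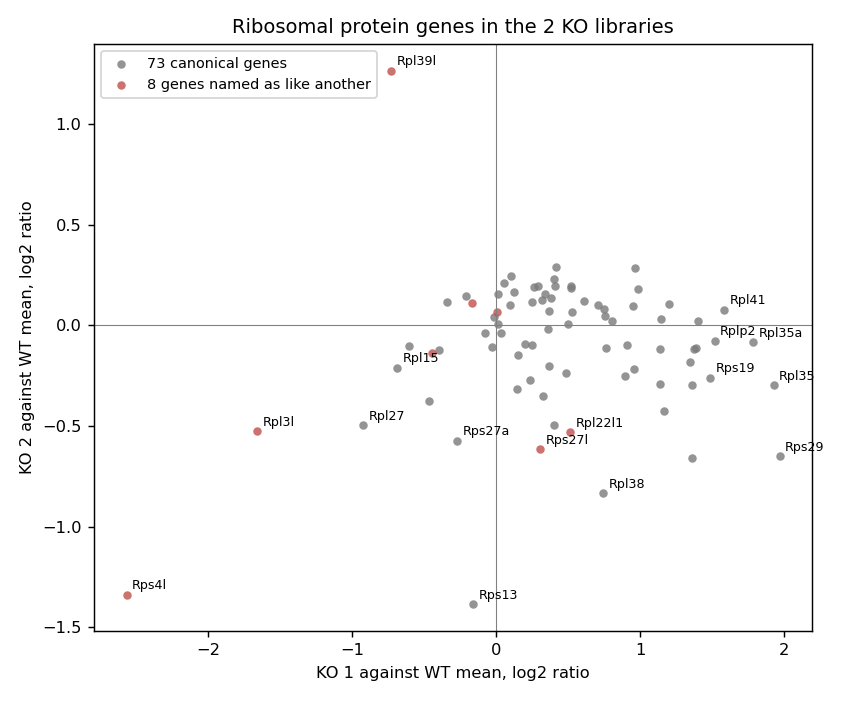
Log2 ratio to the WT mean of 81 tested members in KO 1 (horizontal) and KO 2 (vertical), with 73 canonical genes in grey and 8 genes named as like another in red. Both axes share the same WT mean. Most points lie right of 0 and near 0 vertically, with Rps29 and Rpl35 farthest right and Rps4l and Rpl3l farthest left.

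KO 1 was male and KO 2 female, so each was also set against WT of its own sex. Against WT 4, the median log2 ratio of the members in KO 1 was 0.39, with 64 of 86 above 0. Against WT 1 to WT 3, the median in KO 2 was −0.01, with 41 of 86 above 0. A model with an interaction of genotype and sex, chosen after the data were seen, called a differing KO effect for 61 of the 86 members, or 70.9%, where 54.7% of all genes were called. The male effect was the higher in 49 members, or 57% (26.6% of all genes). Rps29 had a difference of 2.58 on the log2 scale (SE 0.30, edgeR adjusted p = 5.96e-09) and Rpl35 of 2.20 (SE 0.22, edgeR adjusted p = 2.59e-10). This model takes its spread from the 3 WT females alone and has 1 KO mouse per sex, so that sex and individual mouse cannot be told apart, and its p-values speak of these mice only.

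The balance of the subunits was below WT in both KO mice, and farther in KO 1. Large-subunit members had 1.18 times the counts of small-subunit members in each WT library (1.177 to 1.183), 1.09 times in KO 1 and 1.15 times in KO 2. The 52 tested large-subunit members had a median log2 change of 0.22 and the 34 small-subunit members of 0.23. Of the large-subunit members 2 were called higher and 1 lower, or 5.77%, and of the small-subunit members 2 were called higher and 2 lower, or 11.8%, where 30.7% of all genes were called.

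Gene length moved with the KO 1 values. The 16 members of up to 500 bases had a median log2 ratio of 1.16 in KO 1, and 15 of the 16 were above 0. In KO 2 their median was −0.19, with 5 of the 16 above 0. The median in KO 1 was 0.53 for 17 members of over 500 to 600 bases, 0.37 for 17 of over 600 to 800 bases, 0.26 for 17 of over 800 to 1000 bases, 0.25 for 15 of over 1000 to 2000 bases and 0.13 for 4 longer ones. Among all genes tested, the 410 of up to 500 bases had a median of 0.08 in KO 1. In the longer classes, in the same order, the median of all genes in KO 1 was 0.21, 0.05, 0.06, −0.01 and −0.08. Across the 86 members the rank correlation of length with the ratio was −0.43 in KO 1 and 0.23 in KO 2, and across all 13294 genes −0.06 and 0.07. These are correlations over genes of the same libraries and are given as descriptions, and all length classes hold fewer than 20 members.

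**Figure D5:**
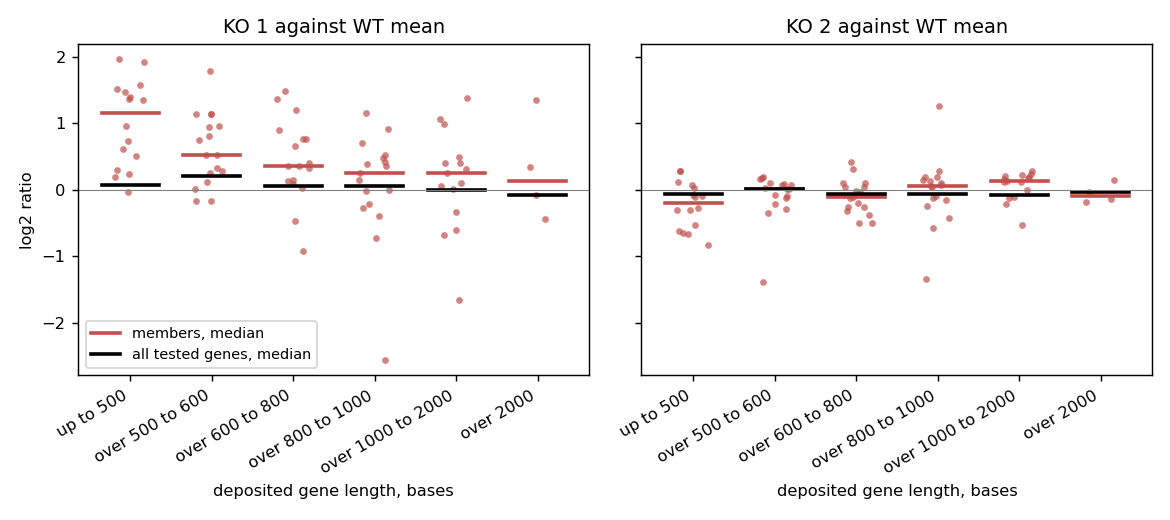
Log2 ratio to the WT mean of each tested member (points) by deposited gene length in bases, for KO 1 (left) and KO 2 (right). Red lines are medians of the members and black lines medians of all genes tested in the same class. In KO 1 the member median falls from 1.16 in the shortest class to 0.25 at over 1000 to 2000 bases, while in KO 2 it lies between −0.19 and 0.13.

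Base content, motifs and abundance were set against the same values. The rank correlation of transcript GC content with the KO 1 ratio was 0.19 over 85 members and 0.14 over 12057 genes. With the KO 2 ratio it had the opposite sign, at −0.16 and −0.12. The 15 members with a pyrimidine run at the start had a median KO 1 ratio of 0.29, and the 49 others with a promoter window 0.40. The 12 members with CCGGAAGT had a median of 0.86 in KO 1, and the 52 without it 0.35. In KO 2 the corresponding medians were −0.08 and −0.04 for the run, and 0.04 and −0.06 for CCGGAAGT. WT abundance went with the KO 2 ratio across members (rank correlation 0.52, n = 86), against 0.00 across all genes. With the KO 1 ratio the correlation was −0.03 across members and −0.01 across all genes.

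The like-named paralogs are given beside the genes they are named after. Of the 8 tested, edgeR called 0, DESeq2 1 (lower) and limma 0, and 2 had an unadjusted edgeR p under 0.05, both lower. Of all genes, edgeR called 30.7%, DESeq2 39.6% and limma 11.3% after adjustment. Their median log2 change was −0.15 against 0.24 for the 78 canonical genes. Rps4l, named as like Rps4x (chr6:148354656-148355596), read 2.63, 2.09, 2.03 and 3.09 CPM in WT against 0 in KO 1 and 0.672 in KO 2. It was below WT in both KO mice and had the lowest fitted change of the family, but with a wide error (log2 change −3.03, SE 1.05, edgeR adjusted p = 0.083). A count of 0 in KO 1 allows up to 0.153 CPM, which is 3 counts in that library, for counting error only. Its parent Rps4x, an X-linked gene of the small subunit, read 451, 424, 418 and 402 CPM in WT against 554 in KO 1 and 466 in KO 2, above WT in both (log2 change 0.25, edgeR adjusted p = 0.113).

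Rpl3l, known as the striated-muscle form of Rpl3 (chr17:24727826-24736143), read 0.893, 1.21, 0.805 and 1.41 CPM in WT against 0 in KO 1 and 0.597 in KO 2. Both KO values were below WT at this low level (log2 change −2.002, SE 1.09, edgeR adjusted p = 0.221). Rpl3, which reaches towards the peptidyl transferase centre, read 122, 127, 120 and 138 CPM in WT against 333 in KO 1 and 117 in KO 2. Parent and paralog therefore lay on opposite sides of WT in KO 1.

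Rpl39l, best known from male germ cells (chr16:10170197-10174911), read 0.338, 0.376, 0.498 and 0.105 CPM in WT against 0 in KO 1 and 1.49 in KO 2. It was the member farthest above WT in KO 2 and was at 0 in KO 1 (log2 change 1.23, SE 0.86, edgeR adjusted p = 0.325). Rpl39, its X-linked parent, read 1.42, 1.42, 2.03 and 1.55 CPM in WT against 2.71 in KO 1 and 1.79 in KO 2. Rpl10l, the autosomal copy of X-linked Rpl10, had no count, which allows up to 0.0720 CPM in WT 1, the deepest library. Rpl10 read 19.003 to 25.02 CPM in WT against 22.3 in KO 1 and 21.1 in KO 2, inside the WT range.

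Rpl22 and Rpl22l1 are the pair known from T-cell development, where Rpl22 represses its paralog. Rpl22 (chr4:152324436-152334082) read 363, 361, 345 and 366 CPM in WT against 455 in KO 1 and 399 in KO 2. Both KO mice lay above WT, without passing the test (log2 change 0.22, SE 0.07, edgeR adjusted p = 0.062). Rpl22l1 (chr3:28805508-28807424) read 38.5, 49.3, 44.6 and 44.4 CPM in WT against 63.4 in KO 1 and 30.4 in KO 2. The KO mice lay on opposite sides of WT (log2 change −0.09, SE 0.27, edgeR adjusted p = 0.835). Per length, Rpl22 stood at 176 RPKM and Rpl22l1 at 92.6 RPKM in WT.

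The coding sequences of this pair agree at 254 of 366 aligned bases, or 69.4%. A stretch of 60 coding bases in which they are most alike is shown, from base 231 of Rpl22 and base 213 of Rpl22l1, with the 8 differing bases in capitals.
Rpl22: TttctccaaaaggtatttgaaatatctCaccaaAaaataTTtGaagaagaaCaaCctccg
Rpl22l1: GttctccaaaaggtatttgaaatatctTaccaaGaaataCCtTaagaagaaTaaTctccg
Of the windows of Rpl22, 1.42% occur in other genes, and of those of Rpl22l1, 58.6%. The value of Rpl22l1 is the less certain.

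Among the other like-named genes, Rps27l, a target of p53, read 90.7, 89.2, 97.1 and 85.5 CPM in WT against 112 in KO 1 and 59.0 in KO 2. It split the KO mice in the same way as Rpl22l1 (edgeR adjusted p = 0.557). Rpl7l1 read 155, 153, 153 and 150 CPM in WT against 112 in KO 1 and 139 in KO 2. It lay below WT in both while its parent Rpl7 rose (log2 change −0.25, SE 0.08, edgeR adjusted p = 0.071). Rpl32l and Rpl6l read 135 to 154 and 196 to 217 CPM in WT, with log2 changes of −0.02 and 0.03. Rpl36a was inside the WT range in both KO mice, and Rpl36al outside the naming rule stood at 97.4 to 108 CPM in WT against 139 in KO 1 and 93.5 in KO 2.

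The acidic stalk, which recruits elongation factors to the large subunit, did not move as a unit. Rplp0, the base of the stalk, read 1926, 1906, 1838 and 1853 CPM in WT against 2345 in KO 1 and 2054 in KO 2, above WT in both (edgeR adjusted p = 0.089). Rplp1 read 831, 821, 773 and 799 CPM in WT against 948 in KO 1 and 667 in KO 2. Rplp2 read 62.8, 64.6, 63.4 and 57.4 CPM in WT against 179 in KO 1 and 58.8 in KO 2. Relative to the WT mean, KO 1 was 1.25 times for Rplp0, 1.18 times for Rplp1 and 2.88 times for Rplp2. The proteins of Rplp1 and Rplp2 pair with each other in the stalk.

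Rpl5 and Rpl11, which carry the smallest large-subunit ribosomal RNA and restrain MDM2 when assembly fails, also parted. Rpl5 read 21.9 to 24.5 CPM in WT against 21.6 in KO 1 and 22.2 in KO 2. Rpl11 read 23.4 to 30.4 CPM in WT against 51.1 in KO 1 and 22.3 in KO 2. Rpl5 was 0.95 and 0.97 times its WT mean in KO 1 and KO 2, and Rpl11 was 1.96 times its WT mean in KO 1 only. Fau, the ubiquitin-like fusion gene, read 22.4 to 26.2 CPM in WT against 28.6 in KO 1 and 27.2 in KO 2, above WT in both, unlike the ubiquitin fusion gene Rps27a.

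Rps19 and Rps24 are known from Diamond-Blackfan anaemia, in which too little of a ribosomal protein impairs red-cell formation, and Rps14 from an acquired anaemia. Rps19 read 116, 119, 111 and 115 CPM in WT against 324 in KO 1 and 96.0 in KO 2. Rps24 read 252 to 284 CPM in WT against 300.0 in KO 1 and 244 in KO 2. Rps14 read 838 to 900 CPM in WT against 1033 in KO 1 and 809 in KO 2. These 3 were above WT in KO 1 and below in KO 2, and Rps19 stood at 2.81 times its WT mean in KO 1. Members known from the same inherited anaemia lay otherwise too: Rpl15 and Rpl27 were below WT in both KO mice, and Rps26 was above WT in both. Rps6, the ribosomal protein phosphorylated downstream of mTOR, went the other way in KO 1, with 67.1 to 78.3 CPM in WT against 56.2 in KO 1 and 77.1 in KO 2.

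Other members named for known roles varied likewise. Rpl38, known for its effect on the patterning of the body axis, read 3.59 to 5.27 CPM in WT against 7.22 in KO 1 and 2.09 in KO 2. Rpsa, also known as the laminin receptor, read 354, 357, 354 and 332 CPM in WT against 694 in KO 1 and 395 in KO 2. Rpsa was above WT in both KO mice (log2 change 0.53, SE 0.21, edgeR adjusted p = 0.109). Rpl15 read 90.4, 94.7, 88.8 and 89.0 CPM in WT against 56.2 in KO 1 and 78.4 in KO 2, below WT in both (log2 change −0.39, SE 0.12, edgeR adjusted p = 0.056). Rpl24 read 12.02 to 15.99 CPM in WT against 9.62 in KO 1 and 10.3 in KO 2 (edgeR adjusted p = 0.086).

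Other lists of the translation machinery had medians nearer to 0 in KO 1 than the 0.39 of the members. They ran from −0.11 for ribosomal protein chaperones and assembly factors to 0.25 for nascent-chain and TOP-type partner genes. Neither Rack1 nor Rpl36al passed the test (edgeR adjusted p = 0.925 and 0.615). Rack1, a signalling scaffold on the small subunit, read 1226 to 1307 CPM in WT against 1151 in KO 1 and 1344 in KO 2. Of 77 tested mitochondrial ribosomal proteins edgeR called 0 higher and 9 lower (among them Mrpl17, Mrps34, Mrpl19 and Mrpl38), where 14.1% of all genes were called higher and 16.5% lower, with 6 higher and 16 lower at an unadjusted p under 0.05. DESeq2 called 4 higher and 14 lower, and limma 1 and 0. Of all genes, DESeq2 called 39.6% and limma 11.3%, in either direction. Their median ratio was 0.00 in KO 1 and −0.11 in KO 2, beside 0.39 and −0.01 for the cytosolic genes.

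Of 36 translation initiation factors, edgeR called 1 higher (Eif3h) and 4 lower (among them Eif4g3, Eif2s1 and Eif4e), with a median KO 1 ratio of 0.07. DESeq2 called 2 and 7 of them, and limma 0 and 0. The shares of all genes called by edgeR, 14.1% higher and 16.5% lower, stand beside each of these lists. So do the 39.6% called by DESeq2 and the 11.3% called by limma, in either direction. Of 10 elongation and termination factors edgeR called 0 higher and 2 lower (Gspt1 and Abce1), with 2 higher and 3 lower at an unadjusted p under 0.05, as in the DESeq2 calls, and limma called 0 and 1. Of 20 ribosomal protein chaperones and assembly factors edgeR called 0 higher and 8 lower, among them Heatr3, Sdad1, Ltv1 and Rpf2. At an unadjusted p under 0.05 the counts were 0 and 10, DESeq2 called 0 and 10, and limma 0 and 1. Of 22 regulators of ribosomal protein synthesis edgeR called 2 higher, among them Eif2ak3, a kinase that restrains initiation, and 5 lower, among them Eef2k, Eif4ebp1 and Mycn. DESeq2 called 3 and 6, and limma 1 and 2. Of 10 nascent-chain and TOP-type partner genes, edgeR called 0 higher and 1 lower (Hnrnpa1), with 1 and 2 at an unadjusted p under 0.05. DESeq2 called 1 and 2, and limma 0 and 0. The median ratio of this list was 0.25 in KO 1 and −0.15 in KO 2. Gas5, a non-coding TOP transcript, read 143 to 180 CPM in WT against 380 in KO 1 and 158 in KO 2 and did not pass the test. Snhg1, Snhg8 and Snhg12 were likewise above WT in KO 1, with log2 ratios of 0.75, 0.94 and 1.22. In KO 2 their ratios were −0.42, 0.22 and −0.32. Naca and Tpt1 were also above WT in KO 1, Nap1l1 was below, and Btf3, Hnrnpa1 and Npm1 lay inside the WT range.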

How the data were processed

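Per the submitters' processing notes, the authors made the deposited raw counts per Entrez gene with featureCounts on mm10. Its strand option, the treatment of reads with several matches and the aligner are not stated in any source used here. Libraries were SMART-Seq v4, read as paired ends, per the labels' protocols. The table also holds another value, a deposited gene length. The 6 single-library tables equal the series table.

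Symbols came from RefSeq (25275 identifiers) and GENCODE (18), and 1039 had none. The test used edgeR 4.0.16 under R 4.3.3, with filterByExpr at a count minimum of 10, TMM scaling, a robust quasi-likelihood F-test of genotype with sex as an added term (3 residual degrees of freedom), and Benjamini-Hochberg adjustment over 13294 genes. SE is the log2 change divided by the square root of F. Alternatives used other scalings, filters, limma 3.58.1 and DESeq2 1.42.0, a replicate block and each library left out. The interaction of genotype with sex and the positions under other scalings were chosen after seeing the data. The test was checked on simulated data. Samples are individual mice, and intervals and floors cover counting error only.

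Named members were every paralog pair, members with listed roles, the 10 largest calls per direction without overlap, the 10 members farthest from the member median, and the 5 highest and lowest by WT RPKM. From other lists, up to 4 genes with the smallest p were taken. Rps29, Rpl35, Rpl41, Rps28, Rpl23a, Rpl37, Rps26, the copy genes and Gas5 were added after their values were seen. So were single marker genes and other genes of the Gas5 list. Members and lists were chosen with earlier results of these data known. Some members are counted in the totals but not reported here by name.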

Additional observations from a re-analysis of the deposited data

Results flagged for a closer look

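Of 39 values tested for a WT library far from the other 3, 3 stood apart, and chance gives about 1 in 20. They were Rps13 in WT 4 at 15.3 CPM, Rpsa in WT 4 at 332 CPM and the ratio of large- to small-subunit counts in WT 4. That ratio was 1.177, beside 1.182 to 1.183 in the other WT libraries, a small difference. All 3 belong to the only WT male.

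For 24 of 37 named members the KO effect differed between the male and the female mouse in the edgeR interaction test, and in 18 of the 24 it was higher in the male. Of all genes tested, 54.7% were called in this test and 26.6% with the male effect higher. The male minus female difference (log2) was 2.20 for Rpl35a, 1.75 for Rps19, 1.75 for Rplp2, 1.35 for Rpl3, 1.29 for Rpl38, 1.04 for Rpl22l1 and 1.04 for Rps27l. It was 0.91 for Rpsa, 0.89 for Rpl11, 0.52 for Rplp1, 0.50 for Rpl32, 0.39 for Rps15, 0.35 for Rps4x, 0.28 for Rps14, 0.26 for Rps24, 0.22 for Rplp0, 0.21 for Rpl23 and 0.16 for Rpl7. It was negative for Rpl7l1 (−0.27), Rpl15 (−0.44), Rps6 (−0.45), Rpl27 (−0.68), Rpl3l (−7.49) and Rps4l (−7.54). The values of Rpl3l and Rps4l rest on 0 counts in KO 1, so their size depends on the prior count of the fit. With 1 KO mouse per sex, sex and mouse cannot be told apart.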

How the results depend on the processing

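The counts of called members depended on the libraries more than on scaling. With upper quartile scaling 6 members were called lower and the median log2 change was 0.19, and with library totals 6 were lower. DESeq2 called 17 higher and 6 lower. With limma-voom weights 0 members were lower, the median was 0.25 and 1500 of all genes were called. Without the sex term 8 were higher, 1 lower and the median was 0.25. The replicate block, with 1 residual degree of freedom and no sex term, called 0 higher, 0 lower and 748 genes in all. At an unadjusted p under 0.05 the block had 4 members and limma 17. Of all genes, 5.63% in the block and 11.3% in limma passed even after adjustment. The pairing check gave r = −0.14 for WT 1 with KO 1 and 0.0272 for WT 2 with KO 2, so the numbers do not pair the mice. Leaving out single libraries gave 1 to 51 members higher, 0 to 18 lower, a median of 0.000742 to 0.380 and 1665 to 9473 genes called. The KO minus WT share of counts was 0.402 percentage points, and 0.114 without KO 1 and 0.690 without KO 2. Leaving out WT 4 or KO 1 compares KO 2 with the WT females, and leaving out KO 2 compares KO 1 with WT 4. Single members reversed as follows, with the range over left-out libraries. Rpl19 gave −0.469 without WT 4 and −0.455 without KO 1 (up to 1.30 without KO 2). Rps29 gave −0.653 and −0.640 (up to 1.91), Rps19 −0.260 and −0.245 (up to 1.48), Rps15a −0.204 and −0.189 (up to 1.42) and Rpl34 −0.160 and −0.144 (up to 1.26) in the same order. Rps7 gave 0.175 and 0.190 (down to −0.309) and Rpl32l 0.138 and 0.153 (down to −0.264). Without KO 2 Rpl22l1 gave 0.501, Rplp1 0.234 and Rps27l 0.379, against −0.521, −0.276 and −0.645 without WT 4. Beyond these constructions the cause was not tested. Of the other values of single members, 1198 kept direction and side of the threshold, 146 passed it and 36 no longer did.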
